A study of Mus musculus with 12 samples.

Results

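The genes described here are 43 genes of the motile cilium, listed by mouse symbol and found by that symbol in a table of read counts that holds 49315 genes. Epididymal white adipose tissue (eWAT) of 12 male mice was sequenced, 1 library per mouse, with 3 mice in each of 4 groups. The flox mice (miR-181a2b2flox/flox) carry a floxed Mir181a2b2 locus with no Cre named, and the KO mice (miR-181a2b2-/-) lack the locus in every tissue. All mice ate a high-fat diet (HFD, 60% fat) for 12 weeks and were injected i.p. each week with vehicle or with methotrexate (MTX) at 1 mg/kg. The mice were age-matched, and their age is not given in the sources used here. Libraries are called flox vehicle 1, 3 and 4, KO vehicle 1, 2 and 3, flox MTX 1, 2 and 4, and KO MTX 2, 3 and 4. The list was drawn up after levels in these libraries had been seen, so levels and fold changes of its members that involve vehicle libraries are a description, without p-values.

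Motile cilia are the beating hairs of multiciliated epithelia, such as those of the airways, the ventricles of the brain, the oviduct and the efferent ducts of the testis, and sperm flagella share their core, the axoneme. In the axoneme, outer and inner dynein arms slide the microtubule doublets past each other, nexin links and radial spokes turn the sliding into bending, and the central pair regulates the beat. Foxj1 is the transcription factor that switches on this programme, together with RFX factors, which bind a DNA element called the X-box. Adipocytes, fibroblasts, endothelial cells and macrophages can carry a primary cilium, which lacks dynein arms, spokes and a central pair. Several members also serve the sperm flagellum, and Dnah8 and Dnah17 are the outer arm heavy chains of sperm.

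The start regions of the genes (RefSeq, GRCm38.p6, from 250 bases before to 50 bases after the annotated start) were searched on both strands for 3 sets of letters. Of the 43 members, 37 had an entry, and Foxj1, Dnah3, Dnaaf1, Rsph1, Rsph4a and Tppp3 had none. The letters GTTGCC, which are one arm of an X-box, stood in the start regions of 14 of the 37 (37.8%), against 14.1% of 27025 genes in the table. The forkhead letters TAAACA stood in 11 of the 37 (29.7%), against 15.1% of genes. The complete X-box was searched only as a fixed set of letters with both arms at a fixed spacing. That form was in 0 of the 37 and in 0.152% of genes, and GTTGCC can lie inside it. Forms of the X-box with other letters or another spacing were not searched. The 0 therefore does not show that members lack an X-box with both arms. A match is a set of letters and not a shown binding site. The start regions of 4 members are printed, chosen after their values were seen, because each was near 0 in most MTX libraries, and capitals mark GTTGCC or its complement GGCAAC in Ccdc153 (chr9:44240427-44240726, plus strand) and Drc1 (chr5:30281143-30281442, plus strand), and TAAACA or its complement TGTTTA in Tmem212 (chr3:27896319-27896618, minus strand) and Dnah5 (chr15:28203516-28203815, plus strand).
Ccdc153: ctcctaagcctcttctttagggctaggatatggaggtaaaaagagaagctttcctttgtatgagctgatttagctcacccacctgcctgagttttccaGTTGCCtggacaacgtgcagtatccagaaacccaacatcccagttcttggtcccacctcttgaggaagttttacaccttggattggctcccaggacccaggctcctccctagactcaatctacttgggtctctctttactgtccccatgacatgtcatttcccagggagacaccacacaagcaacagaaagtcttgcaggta
Drc1: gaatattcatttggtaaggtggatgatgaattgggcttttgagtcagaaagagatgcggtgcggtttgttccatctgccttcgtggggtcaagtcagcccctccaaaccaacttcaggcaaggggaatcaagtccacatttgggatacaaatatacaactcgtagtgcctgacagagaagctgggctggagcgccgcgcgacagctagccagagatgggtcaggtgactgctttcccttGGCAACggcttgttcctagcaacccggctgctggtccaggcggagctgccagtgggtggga
Tmem212: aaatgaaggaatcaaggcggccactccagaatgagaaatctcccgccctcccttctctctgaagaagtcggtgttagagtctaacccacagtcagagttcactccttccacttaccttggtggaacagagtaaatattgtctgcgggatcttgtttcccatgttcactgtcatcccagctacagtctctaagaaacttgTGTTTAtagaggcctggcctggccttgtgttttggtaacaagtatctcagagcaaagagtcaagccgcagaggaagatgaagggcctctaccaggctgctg
Dnah5: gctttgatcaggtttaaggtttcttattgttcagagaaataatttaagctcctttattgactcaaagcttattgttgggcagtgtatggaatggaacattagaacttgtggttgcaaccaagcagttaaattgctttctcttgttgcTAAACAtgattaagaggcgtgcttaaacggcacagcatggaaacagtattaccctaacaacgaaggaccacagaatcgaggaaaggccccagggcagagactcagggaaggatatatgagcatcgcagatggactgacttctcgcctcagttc

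Counted reads ranged from 19495310 to 23976469 per library (median 21824170). Levels are CPM, counts relative to library size, scaled with TMM factors, unless counts are named. A gene at 3 counts or fewer is called at the limit, since a count of 0 is compatible with as many as 3, and in CPM this limit was between 0.118 and 0.188. Only counting error enters into it. A set of 12 adipocyte genes summed to between 10230 and 52060 CPM, so adipose RNA was present in every library. The deletion itself could not be checked, because the precursors Mir181a-2 and Mir181b-2 had 0 counts in all libraries but flox MTX 4, which had 2 counts of Mir181a-2.

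Most members separated the same 5 libraries from the other 7. All 43 were above the limit in flox vehicle 1, 3 and 4 and in KO vehicle 1 and 2. In KO vehicle 3 and in the 6 MTX libraries, only 26 to 33 of them were. For 31 of the 43 members each of those 5 libraries lay above each of the other 7, a pattern held by 3.3% of the 18702 genes tested. In KO vehicle 3, 37 of the 43 members were lower than in both other KO vehicle libraries, beside 37.6% of genes, and 16 were at the limit. In bulk RNA, fewer cells of a type and less RNA per cell cannot be told apart.

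**Figure D1:**
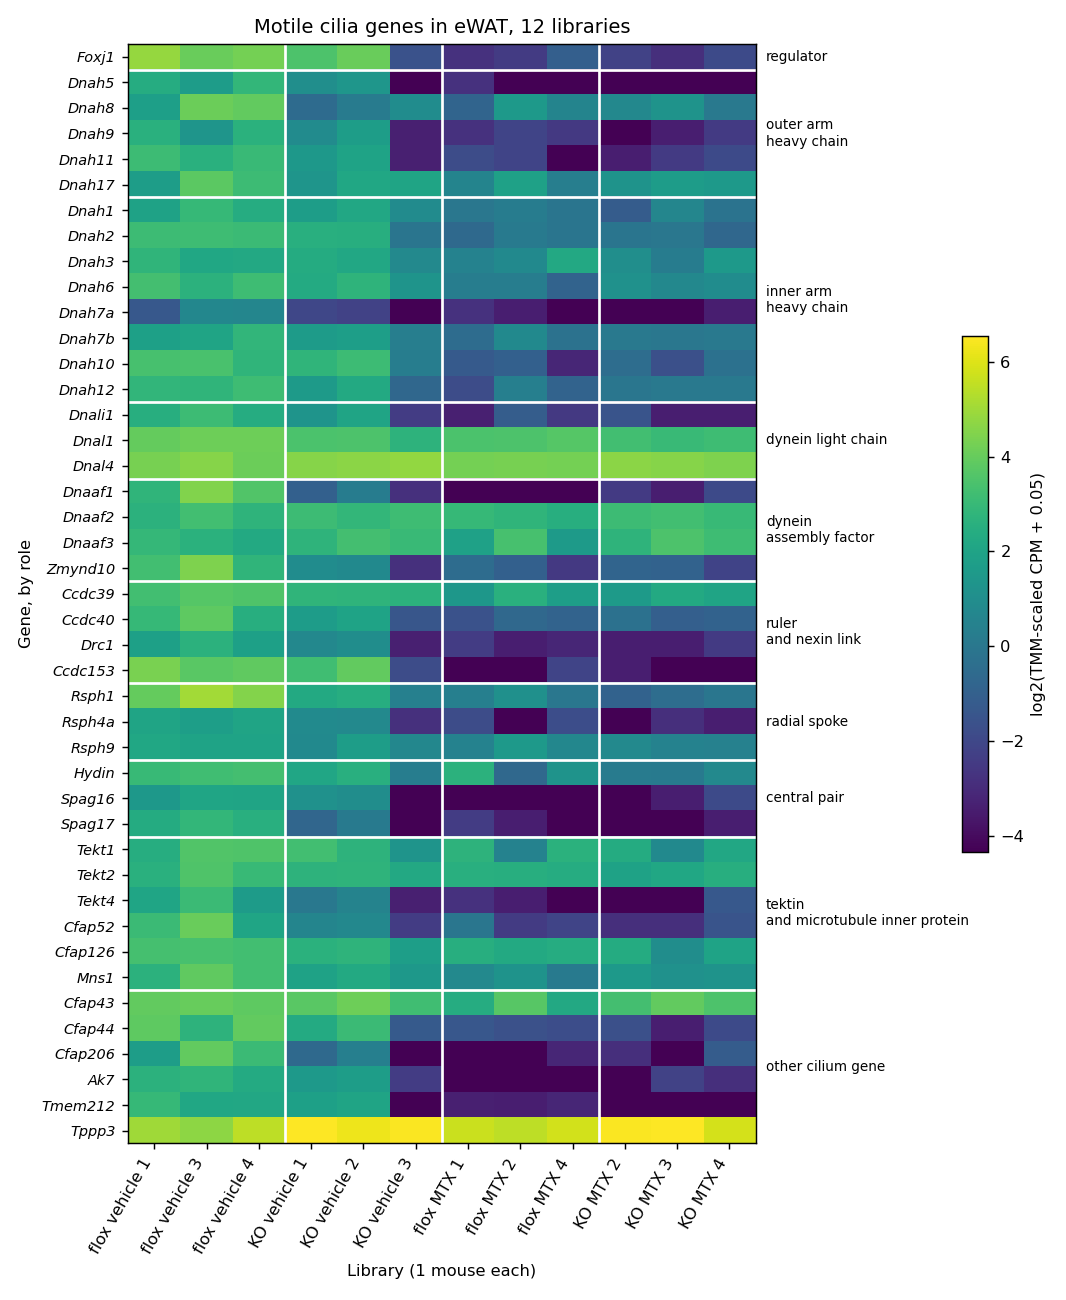
Levels of the 43 members (rows, by role) in the 12 libraries (columns), as log2 of TMM-scaled CPM plus 0.05. Most rows are bright in the 3 flox vehicle libraries and in KO vehicle 1 and 2 and dark in KO vehicle 3 and the MTX libraries, while rows such as Dnal4, Dnaaf2, Cfap43 and Tppp3 are bright throughout.

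Foxj1 was one of the 31. Its level was 28.4, 16.6 and 19.1 CPM in flox vehicle 1, 3 and 4 and 11.3, 16.5 and 0.281 CPM in KO vehicle 1, 2 and 3. Under MTX it was 0.0945, 0.136 and 0.438 CPM in flox mice and 0.174, 0.0867 and 0.218 CPM in KO mice. In counts, the regulator had 414 to 654 reads in the flox vehicle libraries, 225 and 390 in KO vehicle 1 and 2, 6 in KO vehicle 3 and 2 to 7 in each MTX library. The flox vehicle and flox MTX libraries did not overlap, and the mean of the former was 95.9-fold higher. KO vehicle 2 lay almost level with flox vehicle 3.

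Outer dynein arms carry the heavy chains that set beat frequency, and their 5 heavy chains split into those of epithelial cilia and those of sperm. Dnah5, an epithelial chain named here after its values were seen, had 5.21, 3.19 and 7.25 CPM in flox vehicle 1, 3 and 4, 2.02 and 2.58 CPM in KO vehicle 1 and 2, and 0 in KO vehicle 3. It was also listed at 0 counts in 5 of the 6 MTX libraries, with 2 counts in flox MTX 1. Dnah9 and Dnah11, the partners of Dnah5 along the axoneme, reached 6.14 and 8.59 CPM in the flox vehicle group and were at most 0.182 and 0.236 CPM in KO vehicle 3 and the MTX libraries.
The sperm chains behaved differently. Dnah8 stood at 3.43, 17.4 and 15.1 CPM in flox vehicle 1, 3 and 4 but at 0.655, 1.10 and 1.92 CPM in KO vehicle 1, 2 and 3. Under MTX it was 0.520, 2.91 and 1.44 CPM in flox and 1.61, 2.34 and 1.00 CPM in KO mice. All 3 KO vehicle libraries thus lay within the range of the MTX libraries. Dnah17 was 3.25, 13.7 and 8.68 CPM in flox vehicle, 2.52, 4.40 and 4.03 CPM in KO vehicle and 1.19 to 3.64 CPM under MTX, so it never came near the limit.

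Inner dynein arms shape the bend of the cilium, and 8 of their heavy chains are members. Dnah6 had the highest mean of them over all libraries: it was 9.72, 6.25 and 9.003 CPM in flox vehicle 1, 3 and 4, 4.89, 6.56 and 2.44 CPM in KO vehicle 1, 2 and 3, 1.18, 1.18 and 0.5002 CPM in flox MTX and 2.22, 1.65 and 1.92 CPM in KO MTX. Dnah10 was 10.5, 10.5 and 6.88 CPM in flox vehicle, 6.75, 8.68 and 1.17 CPM in KO vehicle, 0.378, 0.455 and 0.0625 CPM in flox MTX and 0.696, 0.260 and 0.787 CPM in KO MTX. Both genes kept KO vehicle 1 and 2 close to the flox vehicle range and KO vehicle 3 far below it. Dnah1, Dnah2, Dnah7b and Dnah12 also had the 5 libraries above the other 7, whereas Dnah3 stayed between 1.13 and 6.86 CPM everywhere. Dnah7a, at 0.347 to 1.57 CPM in flox vehicle, was the member with the lowest counts and did not pass the filter on low counts. Dnah7a, Dnah7b and the non-member Dnah7c share from 12.2% to 17.2% of their transcript windows of 100 bases, so the split of reads among them is uncertain.

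Dynein light and intermediate chains are partly shared with other dyneins, and their 3 members differed. Dnal4 had similar levels in all libraries: 20.1, 23.9 and 17.1 CPM in flox vehicle, 23.7, 25.1 and 27.2 CPM in KO vehicle, 18.99, 19.7 and 19.45 CPM in flox MTX, and 25.1, 23.6 and 21.8 CPM in KO MTX. Under MTX its KO values were all above its flox values, with an edgeR adjusted p of 0.244 over all genes. Dnal1, a light chain of the outer arm, was 15.5, 17.9 and 17.6 CPM in flox vehicle, 11.03, 11.5 and 6.51 CPM in KO vehicle, 10.96, 11.45 and 12.8 CPM in flox MTX, and 9.61, 8.15 and 9.003 CPM in KO MTX. Dnali1, the light intermediate chain of inner arms, had 5.31 to 8.77 CPM in flox vehicle, 2.42 and 4.02 CPM in KO vehicle 1 and 2, and at most 0.409 CPM in the other 7 libraries.

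Dynein assembly factors build the arms in the cytoplasm before transport, and 4 are members. Dnaaf2 was 6.33, 9.44 and 6.74 CPM in flox vehicle, 8.72, 7.199 and 8.998 CPM in KO vehicle, 7.79, 6.82 and 5.565 CPM in flox MTX and 8.66, 9.53 and 7.87 CPM in KO MTX. Dnaaf3 was 7.42, 6.02 and 4.80 CPM in flox vehicle, 6.70, 9.91 and 8.11 CPM in KO vehicle, 3.64, 10.2 and 2.94 CPM in flox MTX and 6.70, 11.2 and 8.83 CPM in KO MTX. The groups overlapped in both genes, except that the KO MTX values of Dnaaf2 were all above its flox MTX values. Dnaaf1, named after its values were seen, was the opposite, with 6.94, 22.1 and 12.0 CPM in flox vehicle 1, 3 and 4 and only 0.454, 1.14 and 0.0937 CPM in KO vehicle 1, 2 and 3. It had 0 counts in all 3 flox MTX libraries, at least 88.2-fold below flox vehicle when each library is set to the limit of 3 counts, and 3, 1 and 5 counts in KO MTX 2, 3 and 4. Zmynd10 resembled Dnaaf1, with 6.79 to 21.4 CPM in flox vehicle and at most 1.91 CPM elsewhere. Dnaaf1 shares 20.7% of its exon bases with Taf1c and Dnaaf2 shares 32.7% with 9330151L19Rik, and whether counting used strand is not given.

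Ccdc39 and Ccdc40 form the ruler that spaces the parts of the axoneme, and Drc1 and Ccdc153 belong to the nexin-dynein regulatory complex. Ccdc153 was 20.7, 13.5 and 14.9 CPM in flox vehicle 1, 3 and 4 and 9.22, 15.2 and 0.234 CPM in KO vehicle 1, 2 and 3. It had 0, 0 and 3 counts in flox MTX 1, 2 and 4 and 1, 0 and 0 counts in KO MTX 2, 3 and 4, against 183 to 478 counts in the 5 libraries where it was high. Ccdc39 kept a base level, with 9.46, 12.9 and 11.8 CPM in flox vehicle, 6.75, 6.56 and 6.28 CPM in KO vehicle, 2.65, 5.95 and 3.31 CPM in flox MTX and 3.001, 4.81 and 3.98 CPM in KO MTX. Here KO vehicle 3 did not fall away from the other KO vehicle libraries. Its partner Ccdc40 did so, at 3.17 and 3.94 CPM in KO vehicle 1 and 2 and 0.328 CPM in KO vehicle 3.

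Radial spokes reach from the doublets to the central pair. Rsph1, a spoke head protein, was 15.8, 33.0 and 23.2 CPM in flox vehicle 1, 3 and 4, 4.74, 5.42 and 1.26 CPM in KO vehicle 1, 2 and 3, 1.23, 2.14 and 0.938 CPM in flox MTX and 0.478, 0.693 and 0.918 CPM in KO MTX. Rsph9 was 4.38, 3.93 and 3.88 CPM in flox vehicle, 1.71, 3.22 and 1.59 CPM in KO vehicle, 1.37, 2.86 and 1.56 CPM in flox MTX and 1.70, 1.34 and 1.31 CPM in KO MTX. Every flox vehicle value of both genes lay above every other value, by a wide margin for Rsph1 and a narrow one for Rsph9. The central pair members Hydin and Spag17 also peaked in flox vehicle. Hydin was 7.85, 9.32 and 9.79 CPM there, 4.23, 5.72 and 1.17 CPM in KO vehicle, 6.28, 0.591 and 2.38 CPM in flox MTX and 1.09, 1.04 and 1.66 CPM in KO MTX. With 6.28 CPM, flox MTX 1 was above both higher KO vehicle libraries for Hydin, although Foxj1 had 2 counts in that library. Spag17 was 5.03, 7.36 and 5.77 CPM in flox vehicle, 0.554, 1.06 and 0 CPM in KO vehicle, 0.142, 0.0455 and 0 CPM in flox MTX, and 0, 0 and 0.0437 CPM in KO MTX.

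Tektins and microtubule inner proteins line the doublets, and 4 of the 6 members, Tekt1, Tekt2, Cfap126 and Mns1, had at least 1 CPM in every library. Tekt2 was 5.99, 11.6 and 7.99 CPM in flox vehicle, 6.40, 6.69 and 4.64 CPM in KO vehicle, 5.72, 5.64 and 5.19 CPM in flox MTX and 3.83, 4.42 and 5.59 CPM in KO MTX. Tekt1 was 5.47, 11.9 and 11.8 CPM in flox vehicle, 9.37, 6.44 and 2.39 CPM in KO vehicle, 6.47, 1.36 and 6.13 CPM in flox MTX and 5.13, 1.73 and 4.46 CPM in KO MTX. The groups overlapped for Tekt1. Tekt4, in contrast, had 3.05 to 8.496 CPM in flox vehicle, 0.957 and 1.40 CPM in KO vehicle 1 and 2, and at most 0.350 CPM elsewhere. Mns1 shares 53.0% of its exon bases with Tex9 and Tekt2 shares 20.8% with Gm12945. Whether this raised or lowered the counts of Mns1 and Tekt2 was not tested, so their base level is uncertain.

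Among the remaining members, Cfap43 and Cfap44 tether the inner arm, and only Cfap44 was near 0 outside the 5 libraries. Cfap43 was 15.1, 16.3 and 14.5 CPM in flox vehicle, 13.6, 17.5 and 9.18 CPM in KO vehicle, 5.196, 13.1 and 4.69 CPM in flox MTX and 9.79, 15.04 and 11.2 CPM in KO MTX. Cfap44 had 6.45 to 15.4 CPM in flox vehicle and at most 0.375 CPM in the 7 low libraries. Tmem212, a membrane protein of ciliated cells named after its values were seen, had 176, 111 and 97 counts in flox vehicle, 70, 95 and 0 in KO vehicle, and 0 or 1 in every MTX library. Cfap206, a spoke base protein also named after its values were seen, was 3.30, 15.2 and 8.36 CPM in flox vehicle and 0.605, 1.23 and 0 CPM in KO vehicle. Tppp3, which binds microtubules in many cell types, had another order: it was 31.9, 25.7 and 43.5 CPM in flox vehicle, 92.8, 76.4 and 90.1 CPM in KO vehicle, 51.3, 44.1 and 56.3 CPM in flox MTX, and 90.0, 93.2 and 57.2 CPM in KO MTX. Each KO library of Tppp3 was above each flox library.

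**Figure D2:**
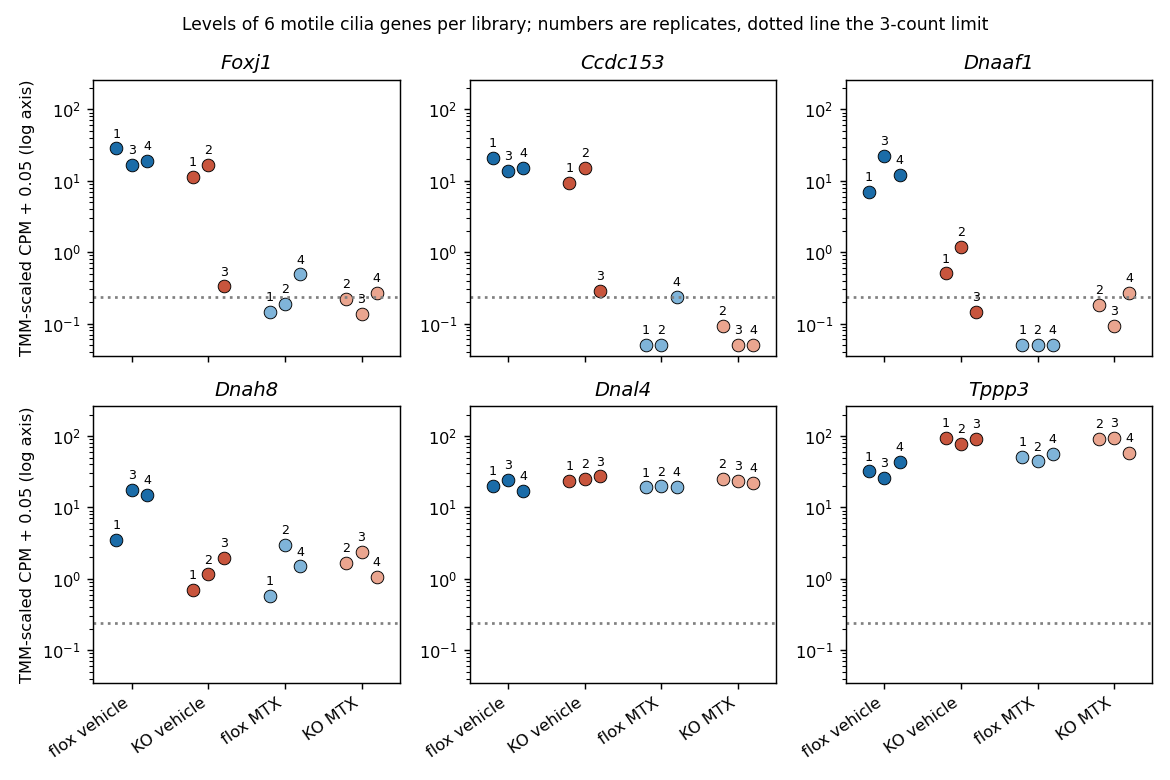
TMM-scaled CPM plus 0.05 on a log axis for Foxj1, Ccdc153, Dnaaf1, Dnah8, Dnal4 and Tppp3, with 1 point per library, numbered by replicate, in the 4 groups; the dotted line is the highest 3-count limit of a library, 0.188 CPM, plus 0.05. Foxj1 and Ccdc153 are high in flox vehicle and in KO vehicle 1 and 2 alone, Dnaaf1 and Dnah8 in flox vehicle alone, Dnal4 lies between 17.1 and 27.2 CPM, and Tppp3 is higher in KO mice.

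By this measure 15 members had almost no reads outside the 5 libraries, being at the limit in at least 4 of the 6 MTX libraries: Dnah5, Dnah9, Dnah7a, Dnali1, Dnaaf1, Drc1, Ccdc153, Rsph4a, Spag16, Spag17, Tekt4, Cfap52, Cfap206, Ak7 and Tmem212. Their sum was 89.9, 124 and 89.5 CPM in flox vehicle 1, 3 and 4, 31.7, 44.6 and 0.984 CPM in KO vehicle 1, 2 and 3, and 0.563 to 2.01 CPM in the MTX libraries, where the low level was the criterion. KO vehicle 3 thus lay inside the range of the MTX libraries. Another 14 members had at least 1 CPM in all 12 libraries: Dnah17, Dnah3, Dnal1, Dnal4, Dnaaf2, Dnaaf3, Ccdc39, Rsph9, Tekt1, Tekt2, Cfap126, Mns1, Tppp3 and Cfap43. These summed to between 124 and 198 CPM, much of it Tppp3. Without Tppp3 the other 13 summed to 116 to 157 CPM in flox vehicle, 105, 114 and 86.7 CPM in KO vehicle 1, 2 and 3, 72.9 to 89.5 CPM in flox MTX and 85.8 to 88.2 CPM in KO MTX, so they too were lowest outside the 5 libraries. The other 14, Foxj1 among them, were in between, and scaled by library size alone, without TMM factors, 12 members had at least 1 CPM everywhere. Per kilobase of exon, Tppp3 (18.2 ± 4.88 CPM per kb, SD, n = 3) and Rsph1 (17.5 ± 6.29) had the highest levels in flox vehicle, and these overlapped in their spread. Dnal4 (8.53 ± 1.43), Foxj1 (8.15 ± 2.36), Ccdc153 (8.05 ± 1.88) and Tmem212 (7.67 ± 2.59) followed and did not differ beyond their spread, while the dynein heavy chains had 0.0899 to 0.629 CPM per kb.

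The first comparison asks what loss of the locus changes in eWAT of HFD-fed mice. Of the 42 members tested with edgeR's quasi-likelihood model, 16 were called in KO against flox mice under vehicle, at an adjusted p below 0.1 over all genes and a fold of at least 1.5, beside 31.7% of all genes tested. Tppp3 was higher (beside 13.9% of all genes) and 15 members were lower (beside 17.8%). Since the members were chosen from such levels, no more is read from these counts. The largest differences were those of Dnaaf1 (24.3-fold lower mean), Cfap206 (14.6-fold), Spag17 (11.3-fold), Zmynd10 (10.1-fold) and Dnah8 (9.75-fold). Their log2 fold changes were -4.57 ± 0.79 (SE) for Dnaaf1, -3.85 ± 1.06 for Cfap206, -3.47 ± 0.86 for Spag17, -3.33 ± 0.82 for Zmynd10 and -3.28 ± 0.73 for Dnah8. Foxj1 at -1.19 ± 0.85, Ccdc153 at -0.99 ± 0.90 and Tmem212 at -1.12 ± 0.98 were not called, with KO vehicle 1 and 2 high and KO vehicle 3 near 0. By role, 0 of 7 inner arm heavy chains tested, 1 of 5 outer arm heavy chains, 2 of 4 assembly factors, 3 of 4 ruler and nexin genes and 4 of 6 tektin and inner protein genes were called lower. All 3 flox libraries lay above all 3 KO libraries for 28 of the 43 members, beside 25.3% of genes. At an unadjusted p below 0.05 stood 19 of 42, beside 41.0% of genes, and DESeq2 called 20 members, beside 29.6%. The median over the 42 members was -1.25, against -0.06 over all genes. Without KO vehicle 3, 13 members were called, 12 of them lower, beside 23.7% of all genes, and without flox vehicle 3, 10 were.

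The second comparison asks what MTX changes in flox mice. Of 42 members, 34 were called, beside 24.2% of all genes: 33 were lower (16.1% of all genes) and Tppp3 was higher (8.09%), at 1.502-fold. At an unadjusted p below 0.05 stood 37, beside 34.2% of genes, and DESeq2 called 35, beside 22.4%. Here too the members were chosen from such levels, and these counts are a description only. For 36 of the 43 members all 3 flox vehicle libraries lay above all 3 flox MTX libraries, beside 17.5% of genes. The log2 fold change was -6.64 ± 1.2 (SE) for Foxj1, -4.88 ± 0.79 for Dnah10, -4.05 ± 0.55 for Rsph1, -3.10 ± 0.43 for Dnah6 and -2.87 ± 0.72 for Dnah8. For Spag16 and Ak7, listed at 0 counts in all 3 flox MTX libraries, flox vehicle was at least 23.2-fold and 38.9-fold higher than the limit. Dnal4, Dnaaf2, Dnaaf3, Dnal1, Dnah3, Hydin, Tekt1 and Tekt2 were not called, with log2 fold changes between -1.54 and -0.08. The call of Tppp3 was lost when TMM factors were left out, where its log2 fold change was 0.38. It was also lost at an adjusted p below 0.05, with the replicate block and when all libraries had to reach 10 counts. The same held with only the 6 libraries of the comparison. Leaving out flox vehicle 1 or 3, KO vehicle 1 or 3, or flox MTX 1 or 4 lost the call too. The median was -3.77 over the members and 0.05 over all genes, and -3.53 when groups at or under 3 counts in every library were set to that limit.

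In KO mice, MTX against vehicle gave 0 called members and 0 called genes in edgeR, beside 0.0% of genes. The smallest adjusted p over all genes was 0.293, and 25 of 42 members, beside 7.97% of all genes, had an unadjusted p below 0.05. DESeq2 called 16 members, all lower, beside 1.39% of genes. With only the 6 KO libraries fitted, 25 members passed the filter on low counts. Of these, 10 stood at an unadjusted p below 0.05, beside 2426 of 16569 genes, and 0 were called, beside 0.0181%. The members were chosen from such levels, so these counts, and those without KO vehicle 3 below, are a description only. The group of 3 KO vehicle libraries held 2 high libraries and KO vehicle 3 near 0. KO vehicle 1 and 2, a pair taken after the low values of KO vehicle 3 were seen, lay above all 3 KO MTX libraries for 36 of the 43 members, beside 19.9% of genes, whereas all 3 KO vehicle libraries did so for 10, beside 9.55% of genes. Without KO vehicle 3, edgeR called 17 members, all lower, beside 1.1% of genes, and Foxj1 had a log2 fold change of -6.40. With that library it was -5.83 ± 1.16 (SE), and that of Ccdc153 was -8.67 ± 1.60. Tmem212 and Dnah5, with 0 counts in all KO MTX libraries, were at least 19.3-fold and 11.74-fold lower there than in KO vehicle. The sperm chain Dnah8 had a log2 fold change of 0.43 ± 0.70 and Tppp3 one of -0.11 ± 0.22.

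KO against flox mice under MTX gave no called member in edgeR. None of the 42 members, and 0.0% of all genes, was called. At an unadjusted p below 0.05 stood 3 members (Tppp3, Dnah6 and Dnaaf1), beside 24.5% of all genes, and DESeq2 called Tppp3 and Dnaaf1, 2 of 42, beside 16.6% of genes. Dnaaf1 had 0 counts in each flox MTX library and 3, 1 and 5 in KO MTX, which establishes no direction. With only the 6 MTX libraries fitted, 25 members passed the filter on low counts, so the others were tested here because of their vehicle levels. Of the 25, 4 stood at an unadjusted p below 0.05, beside 3550 of 16461 genes. Tppp3 was 1.58-fold higher in KO MTX (log2 fold change 0.66 ± 0.22 SE, edgeR adjusted p = 0.124). Foxj1 differed by -0.38 ± 1.42 with 2 to 7 counts per library, which leaves large differences undetectable at this depth. The interaction of genotype and MTX was called for 0 of 42 members, beside 0.989% of all genes (0.898% higher and 0.0909% lower), with 7 members (beside 15.0%) at an unadjusted p below 0.05 and 6 called by DESeq2 (beside 6.01%). The comparisons share libraries, so their values stand side by side and are not independent of each other.

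**Figure D3:**
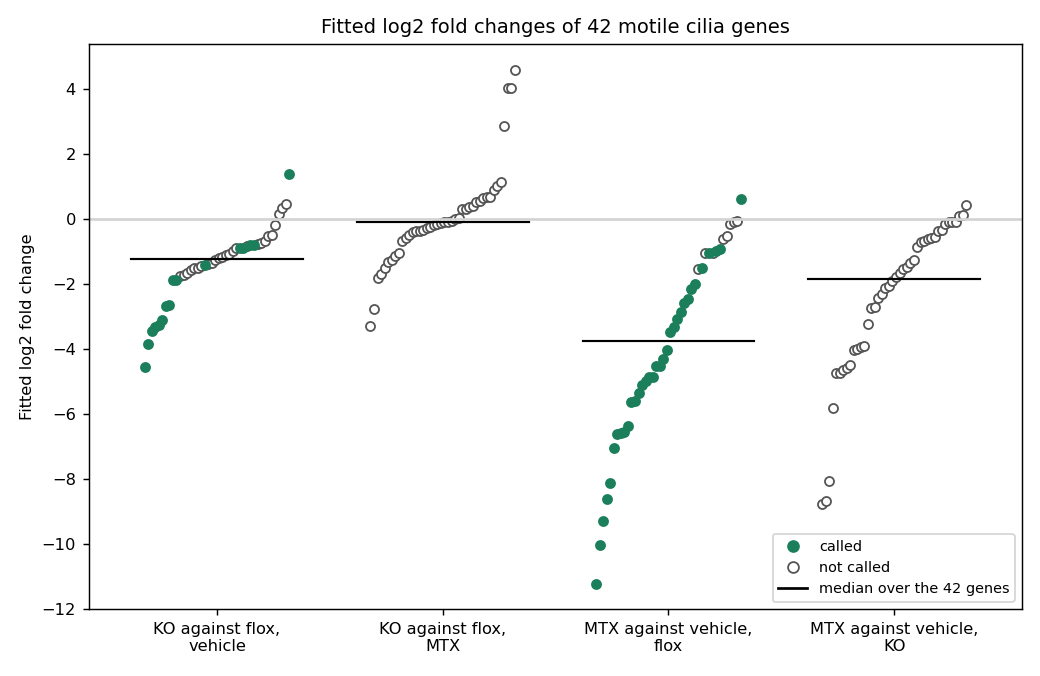
Fitted log2 fold changes of the 42 members tested (1 point each, ordered within a comparison), filled where called; the line is the median. MTX against vehicle in flox mice has 34 filled points, KO against flox under vehicle 16, and the other comparisons 0.

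A similar order of libraries was seen in the sum of other axoneme genes that are not members. This list and those that follow were also chosen with earlier results known. Of 64 other axoneme genes found, 61 were tested. In KO against flox under vehicle, 26 were called lower (beside 17.8% of all genes) and 1 higher (13.9%), and in MTX against vehicle in flox mice 53 were called lower (16.1%). Their sum was 387, 478 and 317 CPM in flox vehicle, 219, 262 and 148 CPM in KO vehicle, and 122 to 140 CPM under MTX. Cfap65, a flagellar protein, was 41.9, 28.6 and 20.8 CPM in flox vehicle, 16.1, 23.8 and 0.234 CPM in KO vehicle and at most 0.175 CPM under MTX. Spata18, placed in the list without a shown part in the axoneme, was 5.402 to 19.5 CPM in flox vehicle and at most 0.524 CPM in every other library. Cfap298, the most abundant of the list, stayed between 13.2 and 30.01 CPM. Among regulators of multiciliation, the group that commits a cell to many cilia, 5 of 9 tested were called lower in KO mice and 7 of 9 in flox mice under MTX, beside the same 17.8% and 16.1%. The sum of this list did not keep the order. It was 99.5, 137 and 68.6 CPM in flox vehicle and 60.2, 68.7 and 60.2 CPM in KO vehicle. Under MTX it was 51.35 to 67.4 CPM in flox and 62.5 to 82.4 CPM in KO mice. Ccno, a cyclin-like protein of centriole amplification, was 8.68, 14.7 and 2.59 CPM in flox vehicle and at most 0.661 CPM in all other libraries. Gmnc, which acts above Foxj1, was 1.74, 0.905 and 1.43 CPM in flox vehicle and also 0.403 and 1.23 CPM in KO vehicle 1 and 2, with 0.141 CPM in KO vehicle 3. KO vehicle 2 was thus within the flox vehicle range for Gmnc and below it for Ccno. E2f4, a cell cycle factor of many tissues, was between 27.5 and 54.3 CPM in every library. Transport genes of primary cilia, which many cell types carry, were all above the limit in every library. Their sum was 648 to 685 CPM in flox vehicle and 530 to 638 CPM in the other libraries, so flox vehicle was highest, as for the other axoneme genes. Of 31, 8 were called lower in KO mice and 7 in flox mice under MTX (beside 17.8% and 16.1% of all genes), and 0 were called higher in either. Ift20, the most abundant of them, was between 51.9 and 76.05 CPM.

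Markers of the neighbouring male tract moved with some of these values, and their part in the results was not tested. The 38 epididymis genes summed to 6915, 18540 and 2391 CPM in flox vehicle 1, 3 and 4, to 68.7 to 104 CPM in KO vehicle, to 851, 61.8 and 52.2 CPM in flox MTX 1, 2 and 4 and to 43.9 to 63.9 CPM in KO MTX. Of them, 23 to 36 were above the limit in flox vehicle, 10 to 23 in KO vehicle, 11 to 23 in flox MTX and 6 to 15 in KO MTX. Lcn8, Lcn9, Gpx5 and Defb12 had 0 counts in flox vehicle 1 and 4. Lcn8, Lcn9 and Gpx5 did not follow the order of the sums. They had 35, 8 and 87 counts in flox vehicle 3, 32, 17 and 94 in KO vehicle 1, and 36, 8 and 81 in flox MTX 4. The 32 sperm and germ cell genes summed to 338 to 717 CPM in flox vehicle, 44.6 to 53.4 CPM in KO vehicle, 34.4 to 73.2 CPM in flox MTX and 25.6 to 64.5 CPM in KO MTX. Sycp3 alone was 26.35, 31.4 and 26.4 CPM in KO vehicle 1, 2 and 3, and 18.2, 12.2 and 20.3 CPM in flox vehicle 1, 3 and 4. All 32 were above the limit in flox vehicle, 12 to 17 in KO vehicle, 10 to 15 in flox MTX and 12 to 28 in KO MTX. In flox MTX 1, with epididymis genes at 851 CPM, Foxj1 had 2 counts, Hydin 133 and Tekt1 137. In KO vehicle 1 and 2, with epididymis genes at 83.8 and 104 CPM, Foxj1 had 225 and 390 counts. Most of those 2 sums came from Lcn2 (29.5 and 36.55 CPM) and Sult1e1 (27.3 and 49.6 CPM). Both genes were above the limit in all 12 libraries, so low sums of the list mostly reflect them, except in flox MTX 4. There Lcn2 was 6.19 and Sult1e1 12.8 CPM of the sum of 52.2 CPM, and Crisp1 was 9.88 CPM. A list of 12 airway and ependyma genes summed to 7.39 to 9.68 CPM in flox vehicle, 3.65 to 4.40 CPM in KO vehicle, 1.06 to 3.12 CPM in flox MTX and 1.95 to 2.80 CPM in KO MTX, with 1 to 6 of them above the limit in a library and Sftpd and Bpifa1 at 0 counts in all 12. Only 3 of the list were tested, of which 1 was called lower in KO mice and 2 in flox mice under MTX, beside 17.8% and 16.1% of all genes. Most of the flox vehicle sums came from Ovgp1 and Kl. Ovgp1 was 3.60, 4.56 and 2.355 CPM in flox vehicle and 1.92 to 2.27 CPM in KO vehicle. Under MTX it was 0.813 to 1.70 CPM in flox and 1.13 to 1.22 CPM in KO mice. Kl, a gene of choroid plexus and kidney, had the members' order of libraries, with 4.77, 1.85 and 4.39 CPM in flox vehicle, 0.705, 0.847 and 0.0469 CPM in KO vehicle and at most 0.0472 CPM under MTX. The 12 mesothelium genes were all above the limit everywhere and moved the other way in flox mice under MTX, where 9 were called higher and 1 lower, beside 8.09% and 16.1% of all genes. In KO mice under vehicle 3 were called higher and 2 lower, beside 13.9% and 17.8%. Without Krt8, left out after its values were seen, a keratin of many epithelia at 160, 278 and 87.9 CPM in flox vehicle, they summed to 145 to 246 CPM in flox vehicle, 239 to 322 CPM in KO vehicle, 337 to 617 CPM in flox MTX and 209 to 372 CPM in KO MTX. With Krt8 the sums were 334 to 423, 255 to 342, 361 to 631 and 212 to 381 CPM.

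**Figure D4:**
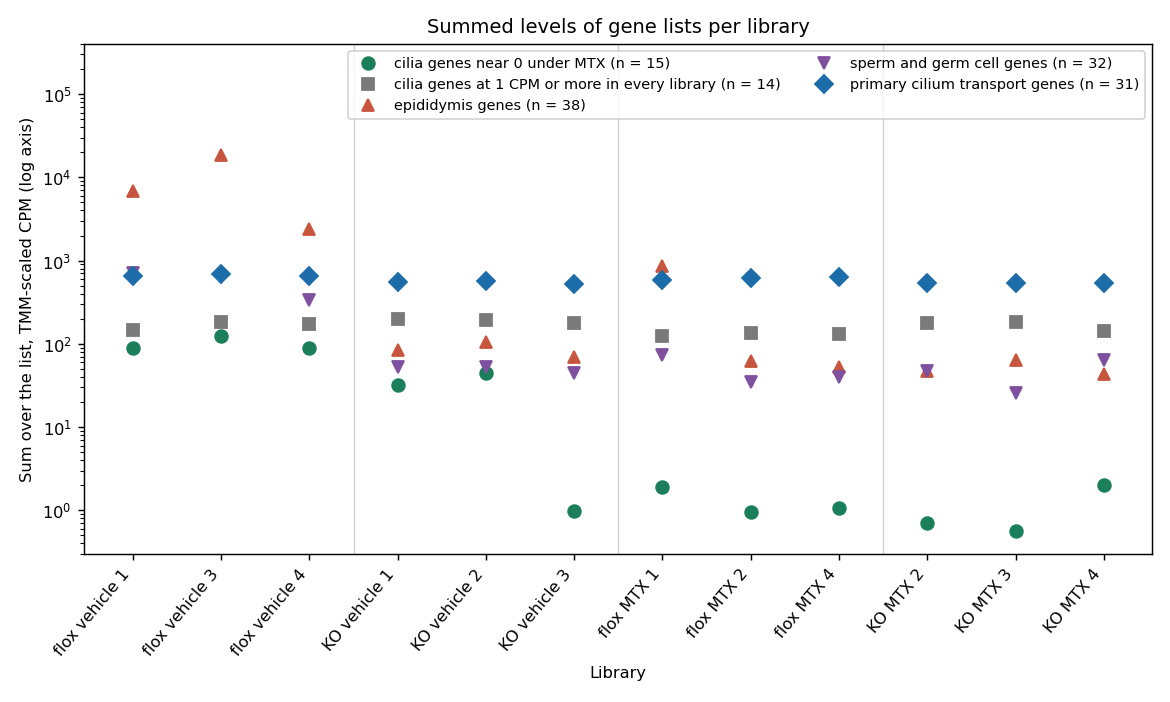
Sums of TMM-scaled CPM per library on a log axis for the 15 members near 0 under MTX, the 14 members found in every library, and the lists of epididymis, sperm and germ cell, and primary cilium transport genes. The 15 members, chosen for low counts under MTX, are at 31.7 to 124 CPM in the vehicle libraries other than KO vehicle 3, which is at 0.984 CPM, and epididymis genes are highest in flox vehicle and next highest in flox MTX 1.

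The members did not move in fixed proportion even among the libraries where they were high. From flox vehicle 1 to flox vehicle 3, the level of a member changed by a factor of 0.427 (Dnah9) to 5.06 (Dnah8), with a median of 1.17 over the 42 members with at least 20 counts in flox vehicle 1. Foxj1 (0.586), Dnah5 (0.612), Ccdc153 (0.652), Tmem212 and Dnah9 were lower in flox vehicle 3, while Dnah8, Cfap206 (4.60), Dnah17 (4.22) and Dnaaf1 (3.19) were over 3 times as high. For 20 epididymis genes the median factor between the same libraries was 2.65. From flox vehicle 1 to KO vehicle 2, Foxj1 stood at a ratio of 0.582, Ccdc153 at 0.733 and Dnah5 at 0.496, but Dnaaf1 at 0.165, Zmynd10 at 0.182 and Dnah8 at 0.321. Dnah17, at 1.35, was among the members higher in KO vehicle 2. Flox vehicle 3 was the highest library for 24 members, flox vehicle 1 for 8 and flox vehicle 4 for 6, and 5 members peaked outside the flox vehicle group. These ratios compare single libraries and carry no error between mice.

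**Figure D5:**
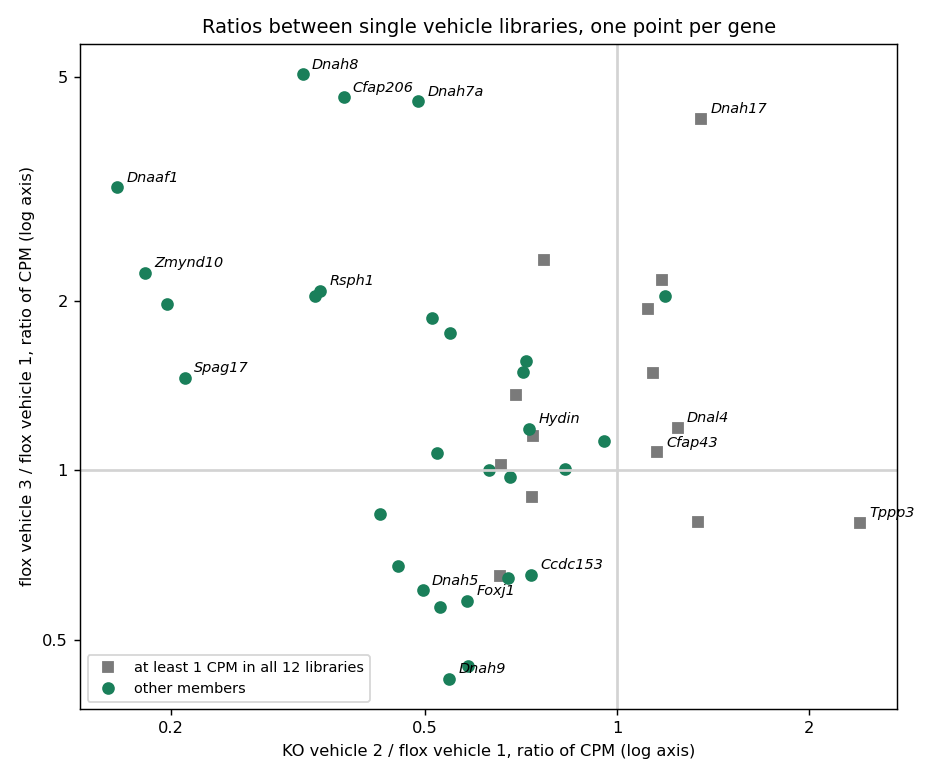
Ratio of CPM between single libraries for each member, KO vehicle 2 over flox vehicle 1 (x, log axis) against flox vehicle 3 over flox vehicle 1 (y, log axis); squares are the 14 members found in every library. Dnaaf1, Dnah8, Cfap206 and Zmynd10 lie at the upper left, and Foxj1, Ccdc153, Dnah5 and Dnah9 at the lower middle.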

How the data were processed

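RNA of eWAT was sequenced in 12 libraries, 3 mice per group. Per the labels, the authors trimmed reads with Trimmomatic 0.36, aligned them to GRCm38 with STAR 2.5.2b and counted them per gene with featureCounts (Subread 1.5.2), and the deposited table holds these raw counts, not normalized. The labels give polyA RNA and the study's methods ribosomal depletion, and the strand setting of counting is not given in the sources used here. The table holds 49315 genes, of which 345 without a symbol carry 0.0688% of counts. Depth was 19495310 to 23976469 counts per library.

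The fit across all genes used edgeR 4.0.16 in R 4.3.3, with TMM factors, filterByExpr by group, 1 model of the 4 groups and a quasi-likelihood test, and left 18702 genes and 42 of the 43 members (not Dnah7a). A gene was called where its p, adjusted by Benjamini-Hochberg over all genes, was below 0.1 and its fold at least 1.5. Errors are standard errors of the fitted log2 fold change or SD over libraries. DESeq2 1.42.0, other scalings, filters and limits, a replicate block and each library left out were alternatives. On simulated counts for KO against flox, over 18702 genes, 179 of 200 genes changed 4-fold were recovered with 19 false calls. Recovery at the members' own counts and spread between libraries was not tested. None of the 12 pairs of libraries within groups agreed within sampling noise. Samples came from separate mice by their labels, and p-values measure the spread between these libraries.

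The members and all gene lists were chosen with earlier results of these data known. Values per library are given for Foxj1, for the 2 members of highest mean CPM in each role and for Dnah8 and Dnah17, and for others where the text says so or where groups of members are described. In the other cilia lists, the gene of highest mean is named with up to 2 of the largest called. Gene coordinates and exon lengths are those of GENCODE M21 on GRCm38, and start regions are from RefSeq, GRCm38.p6. No protein sequence was used here.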

Additional observations from a re-analysis of the deposited data

Results flagged for a closer look

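Dnaaf1, a dynein assembly factor, is listed because its KO and flox libraries were in opposite order under vehicle and under MTX. Under vehicle, every KO library lay below every flox library, and the ratio of the KO to the flox mean was 0.0411. Under MTX, KO libraries 2, 3 and 4 had 3, 1 and 5 counts and the 3 flox libraries had 0 counts each. Only KO MTX 4 was above the limit of 3 counts, so these counts establish no direction under MTX. The difference between the effects was not tested on libraries independent of the choice of the genes, and no p is given for it.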

How the results depend on the processing

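The direction of the members' median was the same under every alternative for KO against flox under vehicle and for MTX against vehicle in either genotype. For KO against flox under MTX, whose median was -0.12, it turned to 0.0224 with library size as the only scaling, to 0.0455 with the replicate block, and ranged from -0.186 to 0.0074 with each library left out (0.0074 without flox MTX 2).

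Each count of members is followed by the share of all genes called in the same way. In KO against flox under vehicle, 16 (31.7%) became 10 (25.9%) at an adjusted p below 0.05, 10 (16.2%) with a log2 fold limit of 1.5, 9 of 19 tested (28.4%) when all libraries had to reach 10 counts, and 10 to 21 with each library left out (10, 25.4%, without flox vehicle 3, and 21, beside 6828 of 19532 genes, without flox MTX 2). In flox mice under MTX, 34 (24.2%) became 9 of 19 tested (15.6%) when all libraries had to reach 10 counts, and 29 to 35 with each library left out (29, beside 2219 of 19024 genes, without flox vehicle 3). In KO mice under MTX, 0 (0.0%) became 16 (1.39%) with DESeq2, 3 (0.0577%) when genes of low counts were kept and 0 to 17 with each library left out (17, 1.1%, without KO vehicle 3). In KO against flox under MTX, 0 (0.0%) became 2 (16.6%) with DESeq2 and 0 to 3 with each library left out (3, 20.8%, without flox MTX 2). For the interaction, 0 (0.989%) became 6 (6.01%) with DESeq2, 1 each with RLE size factors (1.27%), library size (1.02%) and no filter (1.36%), and 0 to 2 with each library left out (2, 7.07%, without flox vehicle 4). The cause of these changes was not tested.

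Single genes changed sign in values near 0. With each library left out, the log2 fold change of Cfap43 in KO against flox ranged from -0.414 to 0.0334 (0.0334 without KO vehicle 3). In flox mice under MTX, Dnal4 ranged from -0.178 to 0.0561, Dnaaf2 from -0.278 to 0.0425 (both highest without flox vehicle 3) and Dnaaf3 from -0.871 to 0.199 (above 0 without flox vehicle 1, flox MTX 1 or flox MTX 4). In KO mice under MTX, Tppp3 ranged from -0.23 to 0.0857 (highest without KO MTX 4). Of 966 values compared for named genes, 887 kept direction and call, 46 lost a call, 26 gained one and 7 reversed.

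Same-numbered libraries did not clearly deviate together (median r = 0.0516 over 12 pairs, 4 of them over 0.1, and 1 of 12 libraries correlated best with its own number). For the 42 pairs with other numbers the median r was -0.0149, and 15 were over 0.1. The study used littermates matched by cage, and so few libraries per group cannot exclude a pairing by litter or cage. With the replicate block, calls were 18 (27.2% of genes), 0 (0.0%), 33 (14.8%), 0 (0.0%) and 0 (0.0%) for KO against flox under vehicle, KO against flox under MTX, MTX in flox mice, MTX in KO mice and the interaction. Low counts limit what can be said of many members under MTX: 19 of the 43 had 10 counts or fewer in at least 4 of the 6 MTX libraries.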

Other observations

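Genes whose level across the 12 libraries was most like that of Foxj1 were ranked, after the values were seen, by the mean absolute difference in log2(CPM + 0.2) from Foxj1, each gene centred on its own mean. Of the 30 closest, 5 were members, 2 were other axoneme genes and 23 were in no list used here. Ccdc153 was closest at 0.215 and Tmem212 stood at 0.52.

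Several of the close genes are known from absorptive epithelia rather than from cilia, and those named next were picked after the values were seen. The genes in no list also include some linked to cilia: Mapk15 (0.516), Dcdc2a (0.571) and Ttc21a (0.766). Dao, an amino acid oxidase (0.351), was 23.1, 17.1 and 16.7 CPM in flox vehicle, 7.76, 9.78 and 0.0469 CPM in KO vehicle and at most 0.175 CPM under MTX. Ggt1, a gamma-glutamyl transferase of brush borders (0.397), was 23.9, 21.8 and 15.01 CPM in flox vehicle, 4.54, 9.32 and 0.141 CPM in KO vehicle and at most 0.188 CPM under MTX. Hnf4a, a transcription factor of liver, gut and kidney epithelia (0.531), was 11.3, 5.35 and 7.43 CPM in flox vehicle, 3.53, 3.09 and 0.0937 CPM in KO vehicle and at most 0.0945 CPM under MTX. Dao, Ggt1 and Hnf4a share the 5 high libraries with Foxj1, and the cells they came from were not tested.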
